A study of Mus musculus with 6 samples.

Results

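The genes described here encode the subunits of the mitochondrial respiratory chain and of ATP synthase, with the factors that assemble complexes I and II. They were chosen by symbol: every gene whose symbol begins with Nduf, Sdha, Sdhb, Sdhc, Sdhd, Uqcr, Cox4, Cox5, Cox6, Cox7, Cox8 or Atp5, plus Cyc1 and Cycs, read from probe sets annotated to that gene alone. This gave 96 of the 18193 genes so annotated: 34 of complex I, 4 of complex II, 9 of complex III, 1 for cytochrome c, 19 of complex IV, 17 of ATP synthase and 12 assembly factors with the prefixes Ndufaf and Sdhaf. Ndufa4 and Ndufa4l2 were counted with complex IV, where the Ndufa4 protein is now placed.

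The respiratory chain lies in the inner mitochondrial membrane. Complexes I and II pass electrons from NADH and succinate to ubiquinone, complex III passes them to cytochrome c, and complex IV passes them to oxygen. Complexes I, III and IV pump protons as they do so, and ATP synthase uses the returning protons to make ATP. Most subunits are encoded in the nucleus and are needed in nearly every cell, while a few subunits of complex IV have isoforms restricted to muscle, testis or other tissues.

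RNA came from bladder epithelial cells of mice at postnatal day 7, on an FVB/N x C57BL/6 strain background, with B6;129P-Upk1btm1Zhang/J given as the reported gene and the sex labelled as male in every sample. The epithelium was loosened from bladder rings with trypsin, dissected off and digested with Blendzymes, and 3 DsRed-positive and 3 DsRed-negative samples, numbered 1, 2 and 5 in both groups, were hybridised to Affymetrix Mouse Genome arrays after 2 rounds of amplification. Upk1b encodes a uroplakin of the urothelial surface. The labels name neither the transgene behind DsRed nor how the cells were parted, and both groups carry the same strain and allele labels. Samples were not pooled, but no label says whether each came from an animal of its own, and the p-values reflect only how far these samples scatter.

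The array labels and the makeup of the groups were examined first. Both arrays numbered 1 go against the label of a male animal: Xist, transcribed from the inactive X chromosome, read 15.08 and 15.48 there and 8.08 to 8.89 on the other 4, while the Y-linked Eif2s3y read 6.32 and 5.44 against 11.78 to 12.93. Results are therefore also given without them. Upk1b was 4.27 log2 units higher in DsRed-positive cells. All 14 urothelial markers tested rose, and all 11 fibroblast and matrix markers tested fell. Of the markers of smooth muscle and mural cells, 8 of 11 fell and 1 rose, Rgs5, a pericyte gene, by 1.56 (limma adjusted p = 0.0439). Of those of endothelium 7 of 8 fell, and of leukocytes 7 of 10. Summed over the list, the log2 signal of the urothelial markers ran from 19.44 to 19.53 in DsRed-positive arrays and from 14.96 to 16.06 in DsRed-negative arrays, and that of the fibroblast and matrix markers from 14.11 to 14.99 and from 19.97 to 20.03. The same sum for leukocytes was 11.80 to 12.69 against 15.20 to 15.61, and the median signal of the tested endothelial markers was 8.38 to 8.59 against 10.91 to 11.46. The part of this cell mixture in the results below was not tested, and in such bulk samples fewer cells of a type and less RNA per cell cannot be told apart.

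Values are log2 signals after quantile normalization, and a change is the DsRed-positive mean minus the DsRed-negative mean. Signals of different genes come from different probes and are not compared with each other. Of the 96 genes, 92 passed the filter on dim probe sets. Cox7a1, Cox7b2, Cox7c and Cox8b did not.

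The changes of respiratory chain genes were spread less widely than those of all tested genes, and few passed the test. At an adjusted p below 0.05 in limma, 6 of the 92 tested genes rose in DsRed-positive cells (6.52%) and 0 fell. Over all 14222 tested genes, 9.21% rose and 11.3% fell, or 20.5% in either direction. At an unadjusted p below 0.05, 12 of the 92 were higher and 3 lower, or 16.3% in all, against 35.2% of all tested genes. The 6 were Uqcrfs1 of complex III, Sdhaf3, Atp5g2 and Atp5b of ATP synthase, Ndufa10 of complex I and Cox4i1 of complex IV. A change of more than 1 log2 unit was measured for 17.4% of the tested respiratory chain genes and 37.8% of all tested genes.

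The median change of the 92 genes was 0.29 log2 units, against 0.04 over all tested genes, and 61 of the 92 changes were positive. The interquartile range of the changes was 0.80, against 1.44. For 15 genes (16.3%) the 95% interval of the change lay wholly within 1 log2 unit of 0, which held for 7.46% of all tested genes. Of the 92 genes, 86 read above unspiked control probe sets on all 6 arrays, against 9226 of all 14222 tested genes. Their median standard error was 0.36, against 0.42, and the part of signal level in these differences was not tested. In 27 of the 92 genes (29.3%) every DsRed-positive array lay above every DsRed-negative array, against 22% of all tested genes. The opposite order held for 6 genes (6.52%), against 21.4%.

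**Figure D1:**
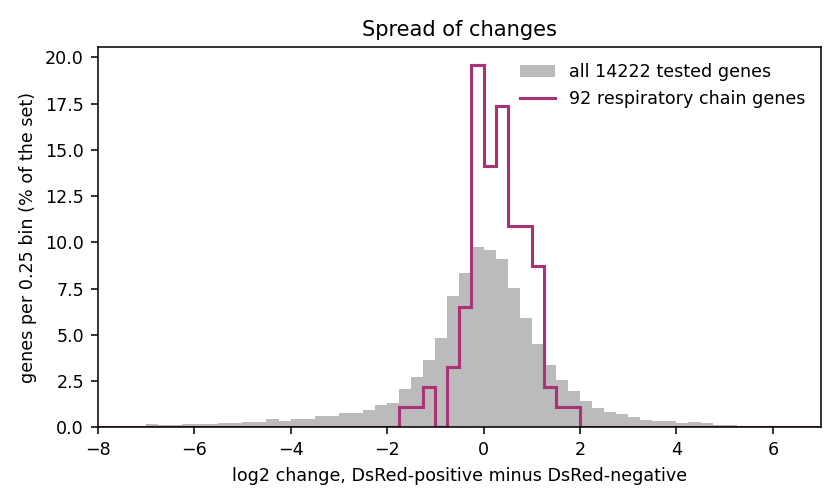
The horizontal axis gives the log2 change between DsRed-positive and DsRed-negative cells and the vertical axis the percent of genes in each bin of 0.25, for all 14222 tested genes (grey) and the 92 respiratory chain genes (outline). The respiratory chain genes form a narrower peak, between -1.61 and 1.79, than all tested genes, which reach from -9.31 to 6.75.

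The promoters of the called genes are shown because nuclear respiratory factors and their binding letters are the textbook link between the subunit genes. NRF1 binds a palindrome of GC-rich letters, GABP (also called NRF2) is an ETS factor, and both act with the coactivator PGC-1alpha, encoded by Ppargc1a. The 250 bases before the start of 5 of the 6 called genes follow, from RefSeq on GRCm38.p6, each written 5′ to 3′ in the direction of the gene. Capitals mark exact matches, on either strand, to GCGCA-N-GCGC with N any base (NRF1), CCGGAAG (an ETS and GABP core), TGACGTCA (the cyclic AMP response element, CRE) and GGGCGG (the Sp1 GC box); TATAAA, the TATA box, was also searched.
Uqcrfs1, chr13:30545317-30545566, minus strand: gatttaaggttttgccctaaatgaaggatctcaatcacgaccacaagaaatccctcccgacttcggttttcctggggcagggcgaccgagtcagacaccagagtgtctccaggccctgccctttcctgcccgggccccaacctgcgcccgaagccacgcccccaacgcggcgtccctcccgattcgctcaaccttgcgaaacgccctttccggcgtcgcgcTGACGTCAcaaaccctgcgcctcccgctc
Sdhaf3, chr6:6955768-6956017, plus strand: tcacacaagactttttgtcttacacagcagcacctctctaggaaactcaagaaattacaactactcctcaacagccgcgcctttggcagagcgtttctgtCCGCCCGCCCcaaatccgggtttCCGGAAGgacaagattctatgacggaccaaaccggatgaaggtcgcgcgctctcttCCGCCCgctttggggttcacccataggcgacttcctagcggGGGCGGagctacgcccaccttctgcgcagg
Atp5g2, chr15:102671048-102671297, minus strand: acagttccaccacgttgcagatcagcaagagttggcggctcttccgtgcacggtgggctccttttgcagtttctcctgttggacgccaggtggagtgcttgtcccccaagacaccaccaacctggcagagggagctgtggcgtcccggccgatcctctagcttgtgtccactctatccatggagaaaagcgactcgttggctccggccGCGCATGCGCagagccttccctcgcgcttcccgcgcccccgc
Ndufa10, chr1:92473759-92474008, minus strand: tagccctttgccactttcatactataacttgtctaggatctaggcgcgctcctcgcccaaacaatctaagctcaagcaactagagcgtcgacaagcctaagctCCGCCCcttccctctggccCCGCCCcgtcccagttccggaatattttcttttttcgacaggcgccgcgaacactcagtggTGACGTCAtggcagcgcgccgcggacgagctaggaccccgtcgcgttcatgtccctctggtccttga
Atp5b, chr10:128083057-128083306, plus strand: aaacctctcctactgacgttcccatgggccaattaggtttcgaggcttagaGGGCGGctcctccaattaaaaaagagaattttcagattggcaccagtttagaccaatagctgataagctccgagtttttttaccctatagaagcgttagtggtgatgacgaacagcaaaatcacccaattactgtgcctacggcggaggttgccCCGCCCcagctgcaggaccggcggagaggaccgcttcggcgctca

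Counting back from the start, with -1 as the base just before it, the NRF1 letters of Atp5g2 lay at -42 to -33 and the ETS core of Sdhaf3 at -127 to -121. The CRE letters lay at -29 to -22 in Uqcrfs1 and at -67 to -60 in Ndufa10. Atp5b held 2 GC boxes and none of the other letters searched, and Sdhaf3 held 4 GC boxes, of which 2 overlap each other. A match describes the letters in this window and is not a measured binding site.

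Among all 79 respiratory chain genes with a promoter in the table, 12 held the NRF1 letters, 16 the ETS core and 3 of these both, so that 25 held at least 1 of the pair. Of the 75 that were also tested on the arrays, 16.0% held the NRF1 letters and 21.3% the ETS core, against 8.25% and 13.7% of the 11375 tested genes with a promoter. The CRE was found in 5.33% against 2.77%, the GC box in 45.3% against 59.7% and the TATA box in 8.0% against 9.05%. With the 50 bases after the start included, a window of 300 bases, the NRF1 letters were in 25.3% against 10.1% and the ETS core in 29.3% against 17.5%. Matches of different motifs overlapped once, in Ndufs3. By complex, NRF1 letters or the ETS core were found in 7 of 31 genes of complex I, 2 of 3 of complex II, 2 of 5 of complex III, 2 of 13 of complex IV, 7 of 15 of ATP synthase and 5 of 11 assembly factors.

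Complex I takes electrons from NADH. Of its 34 genes, all tested, 1 rose and 0 fell, and the median change was 0.18 log2 units. Ndufa10, a supernumerary subunit, read 12.82, 12.97 and 13.18 on arrays 1, 2 and 5 of the DsRed-positive group, the order kept below, and 11.71, 12.12 and 11.62 on those of the DsRed-negative group. The groups did not overlap, and the change was 1.17 ± 0.33 (SE; limma adjusted p = 0.0472). That call was held in 1 of 6 fits that left out an array. A second, dimmer Ndufa10 probe set gave 0.75 ± 0.71 and did not pass (limma adjusted p = 0.516).

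The core subunits of complex I carry its flavin and iron-sulfur clusters. The 6 nuclear ones measured were Ndufs1, Ndufs3, Ndufs7, Ndufs8, Ndufv1 and Ndufv2, and none passed the test. Their median change was 0.41, from -0.22 for Ndufs7 to 0.61 for Ndufv2. Ndufv1, which binds NADH and the flavin, read 13.78, 14.24 and 14.39 in DsRed-positive arrays and 13.29, 14.07 and 14.03 in DsRed-negative arrays, so the groups overlapped, and its change of 0.34 had a 95% interval from -0.53 to 1.21. Ndufs1, the largest core subunit, gave a change of 0.50 with an interval from -0.44 to 1.44. The 28 supernumerary subunits had a median of 0.08 and a wider range, from -1.03 to 1.54. The upper end was Ndufb4, a dim gene, and Ndufa10 came next at 1.17.

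The extremes of complex I were Ndufb4 and Ndufa3, supernumerary subunits of the membrane arm. Ndufb4 had the highest measured change, 1.54 ± 0.55 (SE; limma adjusted p = 0.0985), but its signal was not above that of unspiked control probe sets on any DsRed-negative array or on 2 of the 3 DsRed-positive arrays. Ndufb4 passed the filter on dim probe sets through its DsRed-positive arrays, so its change is not taken as support for a rise. Ndufa3 had the lowest change in complex I. It read 11.79, 12.21 and 12.45 in DsRed-positive arrays and 12.61, 13.17 and 13.75 in DsRed-negative arrays, with every DsRed-positive array below every DsRed-negative one. Its change of -1.03 ± 0.41 (SE) did not pass (limma adjusted p = 0.131). Ndufb7 followed at -0.34, with a 95% interval from -1.20 to 0.52.

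Some complex I genes, picked out once their values were known, gave different answers from different probe sets. For Ndufb5, the brighter probe set gave a change of 1.06 (limma adjusted p = 0.0804) and the other rose by 1.70 (limma adjusted p = 0.0344), with no overlap between groups in either. For Ndufa7, the probe set used gave a change of 0.80 (limma adjusted p = 0.213), and 1 of the other 4 rose by 1.30 (limma adjusted p = 0.0440). For Ndufb8, the bright probe set gave a change of -0.21 with overlapping groups, while a dimmer one fell by 1.59 (limma adjusted p = 0.0338). In each of the 3 genes 1 probe set passed, and the one used, whose change had the same sign, did not. Across all respiratory chain genes, 50 had more than 1 tested probe set, 30 of these had all of them in 1 direction, and the median gap between a gene's probe sets was 0.60 log2 units.

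Complex II, succinate dehydrogenase, links the citric acid cycle to the chain. Its median change was 0.29, and none of its 4 subunits passed the test. Sdha, the flavoprotein that oxidises succinate, read 14.60, 14.39 and 14.41 in DsRed-positive arrays and 14.30, 13.27 and 14.16 in DsRed-negative arrays, without overlap, and its change was 0.56 ± 0.38 (SE; limma adjusted p = 0.363). The iron-sulfur subunit Sdhb gave a change of 0.02, with a 95% interval from -0.79 to 0.82. The membrane anchors were Sdhc, at 0.57 with an interval from -0.28 to 1.41, and Sdhd, at -0.07 with an interval from -1.10 to 0.96. A dimmer Sdhc probe set gave -0.91 ± 0.50 (SE; limma adjusted p = 0.256), so its sign depends on the probe set.

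Complex III, ubiquinol-cytochrome c reductase, gave the gene with the smallest p of the whole set. Uqcrfs1 encodes the Rieske iron-sulfur protein, which takes electrons from ubiquinol. It read 13.93, 13.66 and 13.12 in DsRed-positive arrays and 11.94, 12.38 and 11.99 in DsRed-negative arrays. The groups lay well apart, and the change was 1.47 ± 0.36 (SE), or 2.77-fold (limma adjusted p = 0.0296). It was called in 2 of 6 fits that left out an array.

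The other complex III subunits did not pass. Cyc1, which encodes cytochrome c1 and hands electrons to cytochrome c, gave a change of 0.24 with a 95% interval from -0.53 to 1.02. The core proteins Uqcrc1 and Uqcrc2 gave changes of 0.41 and 0.21, and of this pair Uqcrc1 had groups that did not overlap. Uqcr10 had the second highest change, 0.88, with an interval from -0.45 to 2.20, and it was spread by its DsRed-negative arrays at 9.66, 11.01 and 11.94. Uqcrh, the hinge protein, and Uqcrq were the lowest, at -0.20 and -0.32. The median of the 9 genes was 0.41. Cycs, which encodes somatic cytochrome c, the mobile carrier between complexes III and IV, also gave a change of 0.41, with an interval from -0.48 to 1.30 and overlapping groups.

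Complex IV, cytochrome c oxidase, holds both widely expressed subunits and isoforms restricted to certain tissues. Its 15 tested genes had a median change of -0.01, and 1 rose. The 10 that are widely expressed had a median of 0.29, and the 5 tested isoforms restricted to certain tissues a median of -0.59. Of those 5, 2 were above the control level on all 6 arrays. Cox6b2 and Ndufa4l2 passed the filter on dim probe sets through their DsRed-negative arrays. Isoforms that did not pass it included Cox7a1, with means of 7.44 in DsRed-positive and 6.15 in DsRed-negative arrays, and Cox7b2, with 5.77 and 7.43. The filter thus bears on the median of -0.59, which is not taken as support for a fall. Cox4i1, the widely expressed form of subunit IV, read 16.08, 15.89 and 15.72 in DsRed-positive arrays and 14.66, 14.80 and 14.90 in DsRed-negative arrays. There was a gap between groups, and the change was 1.11 ± 0.31 (SE; limma adjusted p = 0.0476). It was called in none of the 6 fits that left out an array, where the adjusted p reached 0.161.

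The paired isoforms of complex IV were read side by side as changes within each gene. Cox4i2, a form of subunit IV known from lung, gave a change of 0.34 with a 95% interval from -0.42 to 1.11, and was above the control level on 5 of 6 arrays. Cox6a1, the widely expressed form, gave a change of -0.23 (interval -1.11 to 0.64), and Cox6a2, the heart and skeletal muscle form, by -0.56 (-1.46 to 0.35). Cox6b1 gave a change of 0.19 (-0.59 to 0.97), and Cox6b2, known from testis, by -1.23 (-2.39 to -0.08). Neither pair had a member that passed the test, and the difference between members of a pair was not tested.

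Cox6b2 read 7.31, 5.98 and 7.75 in DsRed-positive arrays and 8.26, 8.03 and 8.46 in DsRed-negative arrays. Its groups did not overlap but lay near the control level, and the change did not pass (limma adjusted p = 0.135). Ndufa4l2, a relative of Ndufa4 known to be induced in low oxygen, read 6.01, 7.96 and 7.56 against 8.72, 8.45 and 9.17. It too was lower in every DsRed-positive array, by -1.61 ± 0.55 (SE; limma adjusted p = 0.0872), while Ndufa4 gave a change of 0.42 with overlapping groups. Ndufa4l2 was above the control level on 2 of 3 DsRed-positive arrays and Cox6b2 on 1 of 3, so both sizes are uncertain. Both genes passed the filter on dim probe sets through their DsRed-negative arrays. On the values as deposited, without scaling between arrays, Ndufa4l2 and Cox6b2 were called lower, at -2.05 (limma adjusted p = 0.0282) and -1.71 (limma adjusted p = 0.0433). The median change of all tested genes was -0.17 on those values, and these calls are not taken as support for a fall. Of the markers of smooth muscle and mural cells 8 of 11 fell and 1, Rgs5, rose, with a summed log2 signal of 15.48 to 16.34 in DsRed-positive arrays against 17.15 to 17.47, and their part in these values was not tested.

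Cox7a2 and Cox7a2l, the latter known as a factor that joins complexes III and IV, gave changes of -0.01 and 0.88, with intervals from -0.86 to 0.84 and from -0.15 to 1.91. The muscle form Cox7a1 was not tested. It was above the control level on 1 array, DsRed-positive array 5, where it read 8.50. Cox8a, the widely expressed form of subunit VIII, gave a change of 0.39 with an interval from -0.39 to 1.18. A dimmer Cox8a probe set gave -0.45 ± 0.33 (SE; limma adjusted p = 0.397), so its sign depends on the probe set. Cox8c, known from testis, read 9.76, 10.46 and 10.39 against 10.80, 11.10 and 10.47, barely apart, and gave a change of -0.59 ± 0.36 (SE; limma adjusted p = 0.315). Cox8b, another muscle form, was at or below the control level on all 6 arrays, and Cox7b2 was above it on 1. Of the striated muscle markers, 4 of 10 were tested and none passed, with summed log2 signals of 10.82 to 11.23 in DsRed-positive arrays and 10.77 to 11.41 in DsRed-negative arrays. Cox7c had only dim probe sets to itself and was above the control level on DsRed-positive arrays 1 and 5.

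ATP synthase gave 2 called genes of 17, both higher, and a median change of 0.42. Atp5b encodes the catalytic beta subunit of the F1 head. It read 15.10, 15.38 and 15.55 in DsRed-positive arrays and 14.20, 14.12 and 14.36 in DsRed-negative arrays. The groups did not overlap, and the change was 1.12 ± 0.32 (SE; limma adjusted p = 0.0496), just inside the threshold. It was called in none of the 6 fits that left out an array. Its partner in the head, the alpha subunit Atp5a1, read 15.70, 15.96 and 16.10 against 15.80, 15.76 and 15.75, with overlap. The Atp5a1 change was 0.15 with a 95% interval from -0.57 to 0.87, read from a probe set that may also pick up related transcripts. Of its dimmer probe sets without that limit, the brighter gave 0.86 ± 0.35 (SE; limma adjusted p = 0.136). The dimmest gave -0.11 ± 0.50 (SE; limma adjusted p = 0.903) with overlapping groups, so the sign for Atp5a1 depends on the probe set.

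The c-ring turns in the membrane as protons pass, and 3 genes encode the same mature c subunit with different import sequences. Atp5g2 read 13.96, 14.35 and 13.84 in DsRed-positive arrays and 12.63, 12.58 and 13.11 in DsRed-negative arrays, apart in every case, and rose by 1.27 ± 0.34 (SE; limma adjusted p = 0.0410). Atp5g1 read 12.16, 12.97 and 12.75 against 11.35, 11.26 and 12.45, with DsRed-negative array 5 above DsRed-positive array 1, and its change of 0.94 ± 0.44 (SE) did not pass (limma adjusted p = 0.193). Atp5g3 read 15.80, 15.89 and 16.29 against 16.19, 15.80 and 16.00, fully mixed, with a change of 0.00 and an interval from -0.77 to 0.76. The differences between the 3 genes were not tested. Atp5g2 was called in 1 of 6 fits that left out an array, the one without DsRed-negative array 5. A second, dimmer Atp5g2 probe set gave 0.63 ± 0.33 (SE) and did not pass (limma adjusted p = 0.233).

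The largest measured change of any respiratory chain gene was that of Atp5l, which encodes the small membrane subunit g. It read 11.40, 11.26 and 10.28 in DsRed-positive arrays and 7.99, 9.54 and 10.06 in DsRed-negative arrays. The groups were apart but the DsRed-negative arrays were widely spread, and 1.79 ± 0.60 (SE) did not pass (limma adjusted p = 0.0836). Without a single array in turn it ran from 1.18 to 2.22. At the other end lay Atp5mpl and Atp5k, small membrane proteins, at -0.52 (95% interval -1.36 to 0.32) and -0.36 (-1.57 to 0.85).

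Assembly factors build the complexes but are not part of them. Of the 12, 11 changes were positive, with a median of 0.37, and 1 passed. Sdhaf3, which helps to mature the iron-sulfur subunit of complex II, read 9.65, 9.35 and 9.68 in DsRed-positive arrays and 8.42, 8.50 and 8.17 in DsRed-negative arrays. The groups were clearly apart, and it rose by 1.20 ± 0.32 (SE; limma adjusted p = 0.0390). It was called in none of the 6 fits that left out an array, where its adjusted p ran from 0.0524 to 0.133. Ndufaf7, a methyltransferase that modifies a complex I core subunit, came next at 1.05 ± 0.35 (SE; limma adjusted p = 0.0803), also without overlap. Ndufaf4, a complex I assembly factor, was the lone negative change at -1.30 ± 0.61 (SE; limma adjusted p = 0.192). Its DsRed-positive arrays read 11.55, 12.66 and 10.93 and its DsRed-negative arrays 12.37, 14.08 and 12.60. A second, dimmer Ndufaf4 probe set gave 0.38 ± 0.49 (SE; limma adjusted p = 0.639). For Sdhaf2 the probe set used gave 0.25 and a dimmer one -0.35, so the signs of both genes depend on the probe set.

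**Figure D2:**
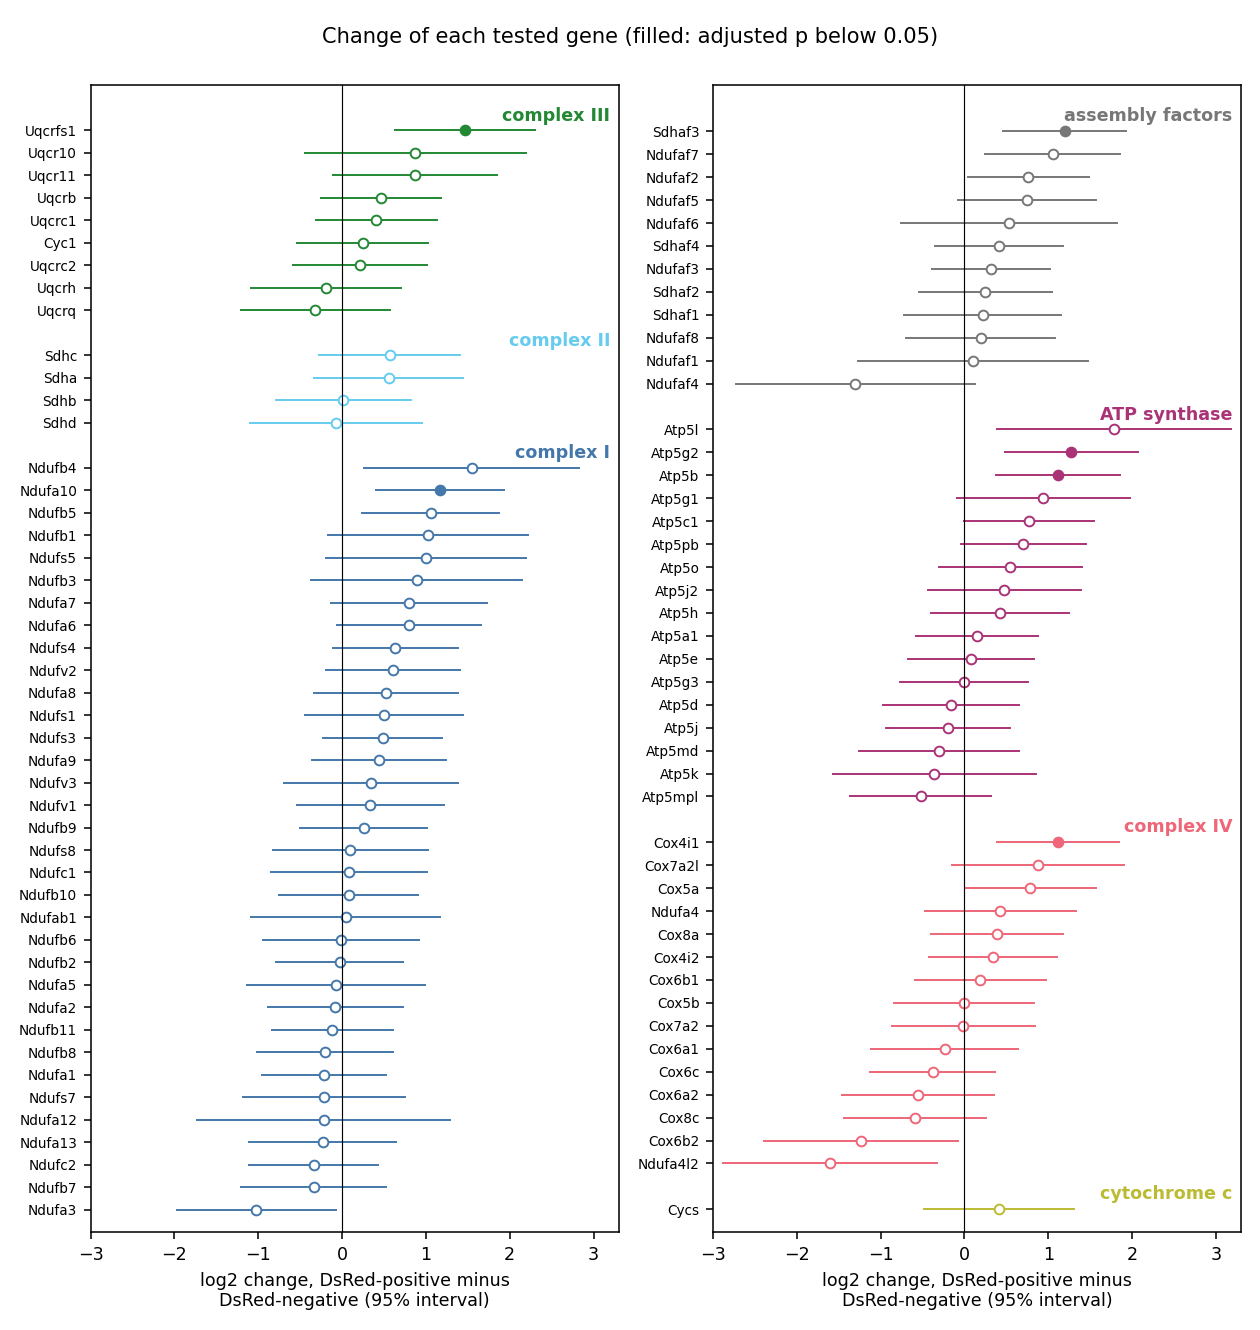
Each point is the log2 change of 1 gene between DsRed-positive and DsRed-negative cells (3 arrays each), with its 95% interval as a line, grouped by complex and ordered by size. The 6 filled points, all above 0, passed at an adjusted p below 0.05, and the lowest points, Ndufa4l2 at -1.61, Ndufaf4 at -1.30 and Cox6b2 at -1.23, did not.

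All of the 6 calls lay close to the threshold. The weakest of them, Atp5b, had an adjusted p of 0.0496 in limma, and the nearest genes outside were Ndufaf7 at 0.0803 and Ndufb5 at 0.0804. Leaving out DsRed-positive array 1, DsRed-positive array 2 or DsRed-negative array 1 left 0 called genes in limma. At an unadjusted p below 0.05 there were 9, 10 and 15 genes. Of all tested genes, 4.38%, 4.91% and 8.88% rose in those fits. Without DsRed-positive array 5, Uqcrfs1 alone was called, without DsRed-negative array 5 Atp5g2 alone, and without DsRed-negative array 2 Uqcrfs1, Ndufa10 and Ndufs5, a supernumerary complex I subunit. That last fit left out the only DsRed-negative array on which Ndufs5 was above the control level. The shares of all tested genes that rose in these fits were 5.27%, 7.88% and 8.44%, in the order given. With both arrays numbered 1 left out, 3.41% of all tested genes rose. Of the 92 genes 0 passed in that fit, and 5 had an unadjusted p below 0.05. The changes of the 6 called genes then ran from 0.96 for Cox4i1 to 1.25 for Atp5g2. The median over the 92 genes was 0.34 in that fit.

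Array by array, the genes were centred on their own mean over the 6 arrays and the median was taken. It was -0.04, 0.20 and 0.26 on arrays 1, 2 and 5 of DsRed-positive cells, and -0.34, -0.16 and 0.08 on those of DsRed-negative cells. Within each number the DsRed-positive array was the higher, but DsRed-positive array 1 lay below DsRed-negative array 5, so the groups overlapped. Complex III and the assembly factors were the sets in which the 3 DsRed-positive medians lay above the 3 DsRed-negative ones. In complex IV the highest median, 0.32, was that of DsRed-negative array 5 and the lowest, -0.28, that of DsRed-positive array 1. The ratio of 3′ to 5′ Gapdh signal, a measure of RNA and amplification length, was 3.57 to 4.03 log2 units in DsRed-positive arrays and 3.35 to 3.67 in DsRed-negative arrays, and that of actin was 2.10 to 2.48 against 2.78 to 3.25. Their part in these values was not tested.

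**Figure D3:**
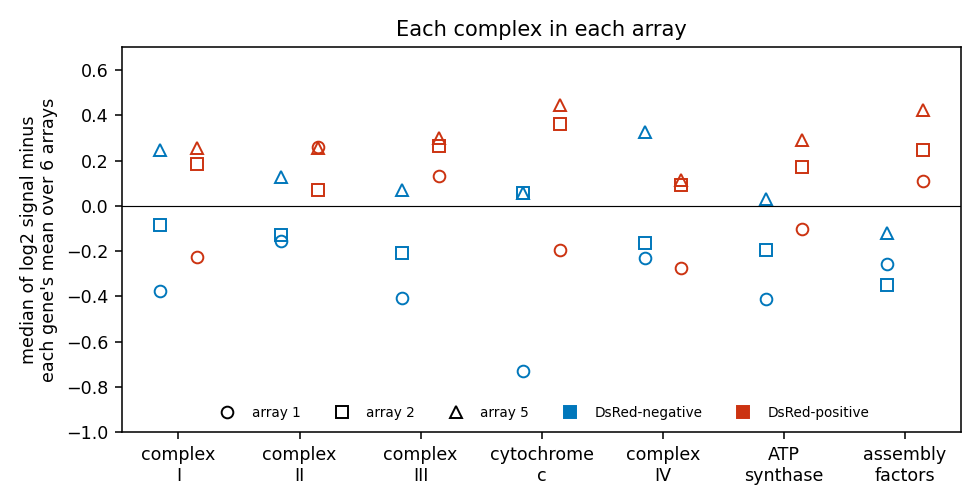
For each complex, the vertical axis gives the median, over its tested genes, of log2 signal minus the gene's mean over 6 arrays, with 1 symbol per array (circles array 1, squares array 2, triangles array 5; red DsRed-positive, blue DsRed-negative). The arrays numbered 1 lie low and those numbered 5 high within most complexes, and the groups are apart for complex III and the assembly factors.

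The scaling between arrays set the size of the shift. The medians of the deposited arrays, as log2 values, were 0.54 lower on average in DsRed-positive than in DsRed-negative arrays. The median change of the 92 genes was 0.20 on the values as deposited, 0.29 after quantile normalization and 0.74 when every array was centred on its median. Over all tested genes it was -0.17, 0.04 and 0.37 in the same order. Relative to all tested genes, respiratory chain genes thus lay 0.37 higher as deposited and with centring, and 0.25 higher after quantile normalization. The value as deposited and with centring is the same by construction, because centring shifts all genes of an array by the same amount. With such centring 17 of the 92 rose (18.5%), against 18% of all tested genes. On the values as deposited 4 rose (4.35%) and 2 fell, against 8.66% of all tested genes that rose and 2042 of 14237 that fell. Higher genes made up 37.6% of all calls as deposited, 64.7% with centring and 45% after quantile normalization. Complex IV was the complex whose median changed sign, at -0.18 as deposited and 0.36 with centring.

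**Figure D4:**
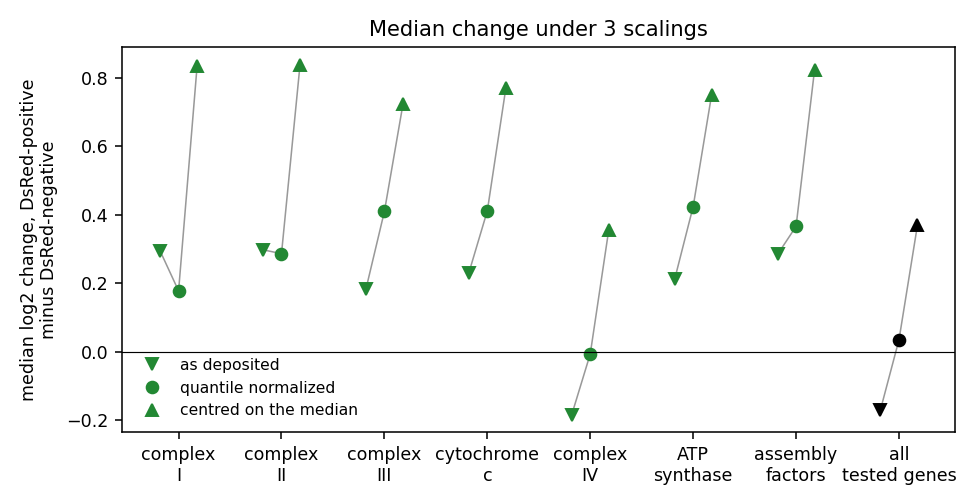
The vertical axis gives the median log2 change of each complex and, in black, of all tested genes, under 3 scalings: values as deposited, quantile normalized, and arrays centred on their medians. Centring moved all medians up, that of all tested genes from 0.04 to 0.37, and complex IV lies lowest among the complexes under each scaling.

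Other genes of mitochondrial respiration were read from lists, as counts against the 9.21% of all tested genes that rose and the 11.3% that fell. Regulators of mitochondrial gene expression held the largest change of these lists. Ppargc1a, the coactivator that drives mitochondrial biogenesis in brown fat and muscle, read 13.52, 13.50 and 13.46 in DsRed-positive arrays and 9.81, 8.91 and 9.32 in DsRed-negative arrays. The groups were far apart, and it rose by 4.14 ± 0.35 (SE), or 17.7-fold (limma adjusted p = 0.000354). Each of the 5 probe sets for Ppargc1a rose. The one used was above the control level on all 6 arrays, while the other 4 were not above it on 1 or 2 DsRed-negative arrays, so their sizes are not given. It was called in all 6 fits that left out an array, with adjusted p up to 0.00407, and rose by 4.36 without both arrays numbered 1 (limma adjusted p = 0.0154).

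Esrra, the nuclear receptor ERR-alpha that acts with that coactivator, read 10.61, 10.37 and 10.03 against 8.66, 7.51 and 9.11. The groups did not overlap, 2 of 3 DsRed-negative arrays were above the control level, and it rose by 1.91 ± 0.47 (SE; limma adjusted p = 0.0315), a call held in 2 of 6 fits that left out an array and lost without both arrays numbered 1 (limma adjusted p = 0.185). Of 12 regulators these 2 rose (16.7%) and 0 fell. Nrf1 gave a change of 0.34 with a 95% interval from -0.40 to 1.08, and Gabpa, which encodes the DNA-binding part of GABP, by -1.32 ± 0.47 (SE), which did not pass. Over the 12 the median was 0.31.

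**Figure D5:**
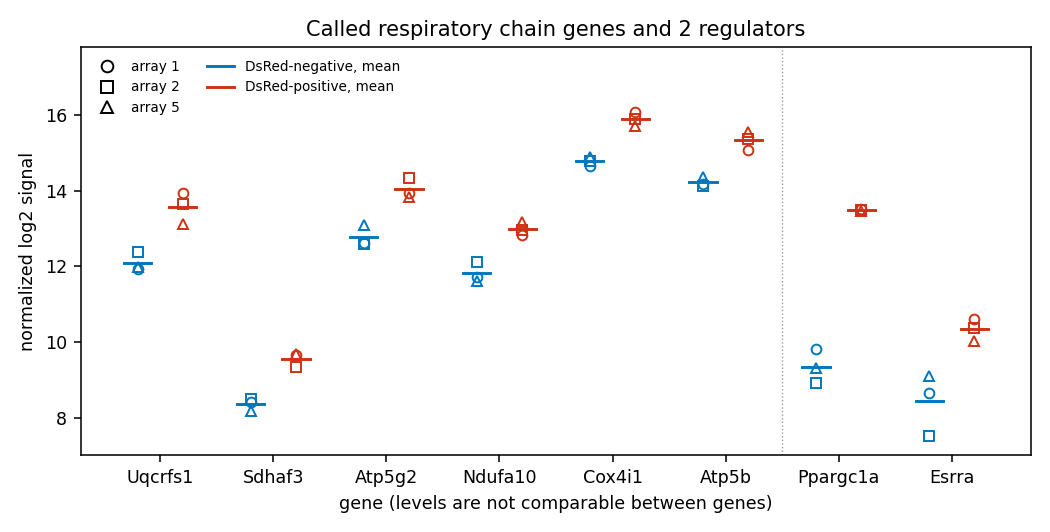
Normalized log2 signal of each array (circles array 1, squares array 2, triangles array 5) and the group mean (line) for the 6 called respiratory chain genes and, right of the dotted line, Ppargc1a and Esrra; red is DsRed-positive and blue DsRed-negative. The group means lie 1.11 to 1.47 apart for the 6 genes, 4.14 apart for Ppargc1a and 1.91 apart for Esrra.

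Among 44 tested further assembly factors, 3 rose (6.82%, below the 9.21% of all tested genes) and 0 fell, with a median of 0.49. They were Hccs, which attaches heme to cytochromes c and c1, at 1.58, Coa7, a complex IV assembly factor, at 1.58, and Cmc1, another, at 1.27, each called in 1 of 6 fits that left out an array. Coa7 was above the control level on 1 of 3 DsRed-negative arrays. None of 13 tested genes for the expression of the mitochondrial genome passed in limma, 2 were higher at an unadjusted p below 0.05, and Tfam, which packages and transcribes mitochondrial DNA, gave a change of 1.62 ± 0.56 (SE). Of 18 citric acid cycle genes 3 rose (16.7%), with a median of 0.57. These were Pdha1 of pyruvate dehydrogenase, at 1.76, Suclg2 of succinyl-CoA ligase, at 1.65, and Dlst of the oxoglutarate dehydrogenase complex, at 1.57. Pdha1 was called in 5 of 6 fits that left out an array and the other two in 4.

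Enzymes that feed electrons to ubiquinone past complexes I and II, read with the uncoupling proteins, had 2 of 12 higher (16.7%). Prodh, proline dehydrogenase, read 10.55, 11.35 and 10.79 in DsRed-positive arrays and 7.58, 7.04 and 8.84 in DsRed-negative arrays. It rose by 3.08 ± 0.52 (SE) and was called in all 6 fits that left out an array, with adjusted p up to 0.0313 in limma, but it was above the control level on only 1 of 3 DsRed-negative arrays, so the size is uncertain. Gpd2, the mitochondrial glycerol-3-phosphate dehydrogenase, rose by 1.28 and was called in 1 of those 6 fits. Of 18 channels, carriers and import genes 2 rose (11.1%, near the 9.21% of all tested genes). These were Immt, a scaffold of the cristae, by 1.66 and Vdac2, a channel of the outer membrane, by 1.18. Immt was called in 3 of 6 fits that left out an array and Vdac2 in 0 of 6, with limma adjusted p from 0.0683 to 0.153. None of the genes tested in these lists fell.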

How the data were processed

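The authors deposited 1 intensity per probe set and array on a linear scale; GCOS is named in the submitters' processing notes, with no version or settings. The trimmed mean was 1500.01 on all 6 arrays, so they had been scaled. An offset of 39.84 (20th percentile) was added, log2 taken and, since array medians spanned 0.74, values were quantile normalized. After removal of 64 controls, those whose mean exceeded the 33rd percentile (7.18) were kept, 30175 of 45101 probe sets. The offset shrinks the changes of dim genes. Symbols came from the platform annotation, updated through gene IDs, and each gene took its brightest single-gene probe set; 10 probe sets naming a respiratory chain gene beside another gene were not used. Groups were compared in R 4.3.3 with limma 3.58.1 (lmFit, eBayes, two-sided), with p-values adjusted by Benjamini-Hochberg across the 30175 probe sets and called below 0.05. The number of arrays limits the precision. The control level was, on each array, the 95th percentile of 27 control probe sets whose transcripts are not spiked in. The script was tested on simulated data. Genes and lists were chosen with earlier results of these data known. Named were called genes, isoform families, central subunits, the 2 largest changes in each direction per complex, and the 3 smallest p of other lists; others were chosen after their values were seen. Alternatives were other scalings, offsets, filters, eBayes settings and probe set choices, a replicate block, each array left out in turn and both arrays numbered 1 left out.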

Additional observations from a re-analysis of the deposited data

How the results depend on the processing

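The count of 6 higher genes depended on most choices. It became 17 with each array centred on its median, 10 with an offset at the 50th percentile, 10 with trend and robust estimation, 2 with an offset of 1, 1 without a filter and 0 without both arrays numbered 1. The share of all tested genes that rose was 18%, 12.5%, 11.7%, 6.9%, 6.05% and 3.41% in the same order. Leaving out each array in turn gave 0 to 3. Lower genes, 0 in the main setting and in each fit that left out 1 array, became 2 on the values as deposited, 1 without a filter (Cox7b2) and 1 where a gene's probe sets were averaged (Cox8c). Over all tested genes 2042, 1502 and 1732 were lower in those settings. With centring the median changes were 0.74 over the 92 genes, 0.83 for complex I, 0.84 for complex II, 0.72 for complex III, 0.36 for complex IV, 0.75 for ATP synthase and 0.82 for assembly factors. As deposited they were 0.18 for complex III and 0.21 for ATP synthase. Without probe sets of the suffixes _s_at and _x_at ATP synthase reached 0.76, and with probe sets averaged complex II came to 0.0034. Complex II ran from 0.12 to 0.38 over the fits that left out 1 array. Over all tested genes, 2568 were higher with centring, and 485 were higher and 758 lower without both arrays numbered 1. Leaving out each array gave 623 to 1263 higher. The cause of these differences was not tested.

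With the number as a replicate block, 0 respiratory chain genes passed in limma, the 6 having adjusted p from 0.0559 (Uqcrfs1) to 0.0946 (Cox4i1), 15 genes had an unadjusted p below 0.05, and over all tested genes 1067 were higher and 1406 lower. The deviations of same-numbered arrays correlated at 0.15, 0.04 and 0.05 across tested probe sets, where every array correlated best with its own number. The value of 0.15 joins the arrays numbered 1, which share the high Xist. Across the respiratory chain genes, DsRed-positive array 2 correlated at 0.20 with DsRed-negative array 5 and at -0.04 with its own number. The pairing is thus a weak hint from the data, and the design does not state it. Ppargc1a was called in all 17 alternatives (3.78 to 5.15).

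Of 102 values of the 6 called genes over the alternatives, 41 kept the call and 0 changed sign. Of 591 values of the 35 other named genes, 29 had another sign and 10 were called. Dim signal limits Ndufb4, Cox6b2, Ndufa4l2, Ndufs5, Ndufb1, Cox4i2 and the 4 genes not tested.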
